A study of Mus musculus with 6 samples.

Results

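Wnt ligands, secreted Wnt antagonists and Wnt target genes were examined in cultured lung fibroblasts (LFBs) of wild-type and Atf4-knockout mice. The set holds 10 genes, the ligands Wnt2, Wnt4 and Wnt5a, the antagonists Sfrp1, Sfrp2, Dkk2 and Dkk3, and the targets Axin2, Lef1 and Ccn4 (listed under its older symbol Wisp1). They were chosen by name from 30738 genes that the array measured with a transcript cluster (a group of probes summarised as one value) naming that gene alone, and each of the 10 had 1 such cluster. Values are robust multi-array average (RMA) levels on the log2 scale, so a difference of 1 is a doubling on the deposited scale, and levels of different genes are not comparable.

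The control group, LFBwt/wt (3 arrays), came from mice of genotype Atf4wt/wt, and the knockout group, LFBD/D (3 arrays), from mice of genotype Atf4D/D, in which loxP-flanked Atf4 had been excised. Both groups carried Rosa26::CreERT2, a tamoxifen-activated Cre that is not restricted to fibroblasts, and both kinds of mice received tamoxifen. Lung tissue of several young adult males and females was digested together, and all cultures were grown to passage 2 in medium that contained 4-hydroxytamoxifen. The samples are named biological replicates, but whether they came from separate digests is not given in the sources used here, so p-values measure only the spread between these samples.

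Wnt proteins are secreted, lipid-modified glycoproteins that bind Frizzled receptors. With the co-receptors Lrp5 and Lrp6 they stop the breakdown of beta-catenin, which then switches on target genes through TCF/LEF factors, while other Wnts act through Ror, Ryk and planar polarity proteins without beta-catenin. Secreted frizzled-related proteins (SFRPs) bind Wnts outside the cell, Dickkopf (DKK) proteins bind the co-receptors, and in the lung Wnts made by mesenchyme take part in branching of the airways and in repair of the alveoli.

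The promoters of 3 members are shown because they stand for the patterns met below. These are an antagonist that fell (Sfrp2), an antagonist of another family that did not pass the test (Dkk2), and a ligand with a difference under the fold threshold (Wnt4). Each is the stretch of 250 bases before the gene's start in RefSeq on build GRCm38.p6, plus strand, and capitals mark matches to the motifs searched. A window was found for 6 of the 10 members, Wnt2, Wnt4, Axin2, Lef1, Sfrp2 and Dkk2.
Sfrp2, chr3:83766071-83766320: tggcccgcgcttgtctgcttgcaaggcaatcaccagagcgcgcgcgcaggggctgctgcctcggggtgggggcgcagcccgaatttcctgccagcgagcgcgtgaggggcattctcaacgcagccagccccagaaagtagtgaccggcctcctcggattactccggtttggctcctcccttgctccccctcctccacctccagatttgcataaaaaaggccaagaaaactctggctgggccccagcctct
Dkk2, chr3:132085042-132085291: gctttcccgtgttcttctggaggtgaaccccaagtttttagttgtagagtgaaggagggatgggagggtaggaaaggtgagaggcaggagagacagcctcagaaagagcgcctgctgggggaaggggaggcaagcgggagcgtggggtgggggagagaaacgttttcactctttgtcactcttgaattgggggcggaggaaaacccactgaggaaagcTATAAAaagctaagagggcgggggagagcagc
Wnt4, chr4:137277385-137277634: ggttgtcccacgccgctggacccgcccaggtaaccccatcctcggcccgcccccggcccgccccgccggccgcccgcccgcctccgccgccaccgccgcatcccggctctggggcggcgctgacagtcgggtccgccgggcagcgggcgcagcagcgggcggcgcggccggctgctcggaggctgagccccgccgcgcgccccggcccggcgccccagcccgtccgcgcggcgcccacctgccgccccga

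The motifs were searched on both strands as the letters TGATGNAA (the ATF4 type of site), as CTTTGAA or its variants CTTTGAT, also written with other ends as CTTTGTA or CTTTGTT (TCF/LEF sites), and as TATAAA (the TATA box). The Sfrp2 and Wnt4 windows held none of these letters. The Dkk2 window held TATAAA, starting 32 bases before the gene's start. In Lef1, 1 of several windows held CTTTGTA and TATAAA, and no other member window held any of the motifs. Of all 32851 promoter windows of this length, 3.45% held TGATGNAA, between 3.20% and 5.03% held each of the TCF/LEF letters, and 12.4% held TATAAA. GC content was 63.6% in the Sfrp2 window, 55.6% in that of Dkk2 and 85.2% in that of Wnt4.

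Atf4 itself read 8.67, 8.95 and 8.73 in the LFBwt/wt arrays and 7.73, 7.49 and 7.48 in the LFBD/D arrays, a 2.32-fold lower level (adjusted p = 0.000497, limma). Array medians lay between 4.87 and 4.91, so Atf4 signal remained in LFBD/D, and its source was not tested. Correlations between arrays were 0.997 to 0.998 for a shared genotype and 0.988 to 0.993 otherwise. Markers of other cell types moved with genotype. By the rule given below, 2.94% of all named genes fell and 3.88% rose. Of 21 leukocyte markers, 18 rose and 0 fell, and their summed level (log2 of the sum of linear values) went from 17.09 to 17.75 in LFBwt/wt to 19.17 to 19.43 in LFBD/D. Adgre1, a macrophage receptor, was higher by 3.65 and Ptprc, the pan-leukocyte antigen CD45, by 3.01, while Cd3e, Ms4a1 and Nkg7 lay below the array medians throughout. Of 12 mesothelial markers, 10 fell and 1 (Krt19) rose, and their summed level went from 15.10 to 15.60 down to 10.46 to 11.50, as Msln fell by 2.60 and Wt1 fell by 2.11. Of 11 fibroblast markers, 7 fell and 0 rose (19.55 to 19.70 against 18.88 to 18.90). Col3a1 fell by 2.55, Col1a2 by 2.46 and Col1a1 by 2.22. Dcn and Vim, named after their values were seen, were higher in every knockout array, by 0.18 and 0.21, under the fold threshold. Fibroblast markers were thus high in both groups, as the label says, but many leukocyte markers were above the array median in both too. Of 11 endothelial markers, 3 rose and 0 fell (13.40 to 13.48 against 13.57 to 13.95), Emcn by 1.86, Pecam1 by 0.62 and Vwf by 0.59. Of 11 epithelial markers, 1 rose, Cdh1 by 1.12, and the summed level was low but did not overlap (8.28 to 8.35 against 8.42 to 8.56). Of 12 mural markers, 2 fell, Des by 1.75 and Abcc9 by 0.66, while the summed levels overlapped (17.95 to 18.19 against 17.83 to 18.22). Such sums are set mainly by the brightest genes of a list. Eng (means of 13.37 in LFBwt/wt and 13.69 in LFBD/D, not passed) made up most of the endothelial sum. Acta2 (mean of 17.68 in both groups, not passed) made up most of the mural sum. The other 10 epithelial markers did not pass. The part of these cell types in the Wnt results was not tested, and in bulk samples fewer cells of a type and less RNA per cell cannot be told apart.

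**Figure D1:**
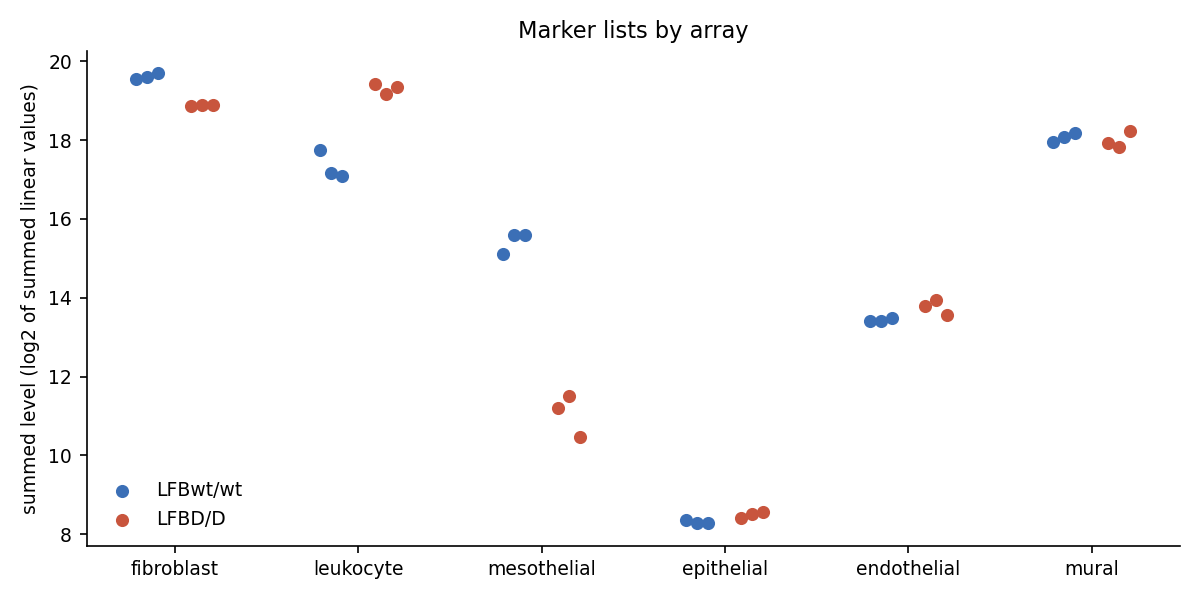
Summed level of each marker list by array, as log2 of the summed linear values; each point is an array, blue for LFBwt/wt and red for LFBD/D. Leukocyte markers were higher and mesothelial and fibroblast markers lower in all 3 LFBD/D arrays.

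Of the 10 genes, 3 fell in LFBD/D (Sfrp1, Sfrp2 and Dkk3), 0 rose and 7 did not pass the test, which required an adjusted p of at most 0.05 (limma, adjusted over all 65956 clusters) and a fold change above 1.5. All 3 are secreted antagonists, while the antagonist Dkk2 and all ligands and targets did not pass. The classes were not matched in level, as Wnt2 and Lef1 lay below every array median. Wnt4 missed only the fold threshold (adjusted p = 0.00132, limma, 1.41-fold). By the same rule 2.94% of all named genes fell and 3.88% rose, or 4.84% and 6.38% of the named genes at or above the level of the median cluster, and 4.85% of all clusters passed in either direction. Of the 10 genes, 8 lay above that level, and the set was chosen with these results known. At an unadjusted p under 0.05 there were 4 lower genes and 1 higher of the 10, where 12.4% of all named genes were lower and 18.3% higher. The methods' t-test with the same adjustment and fold gave 1 lower (Sfrp2) and 0 higher, where it called 1.79% of all named genes lower and 2.31% higher. The groups did not overlap for 5 of the 10 genes, against 37.5% of all named genes. The median log2 change was -0.15 over the 10 genes and 0.02 over all named genes.

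**Figure D2:**
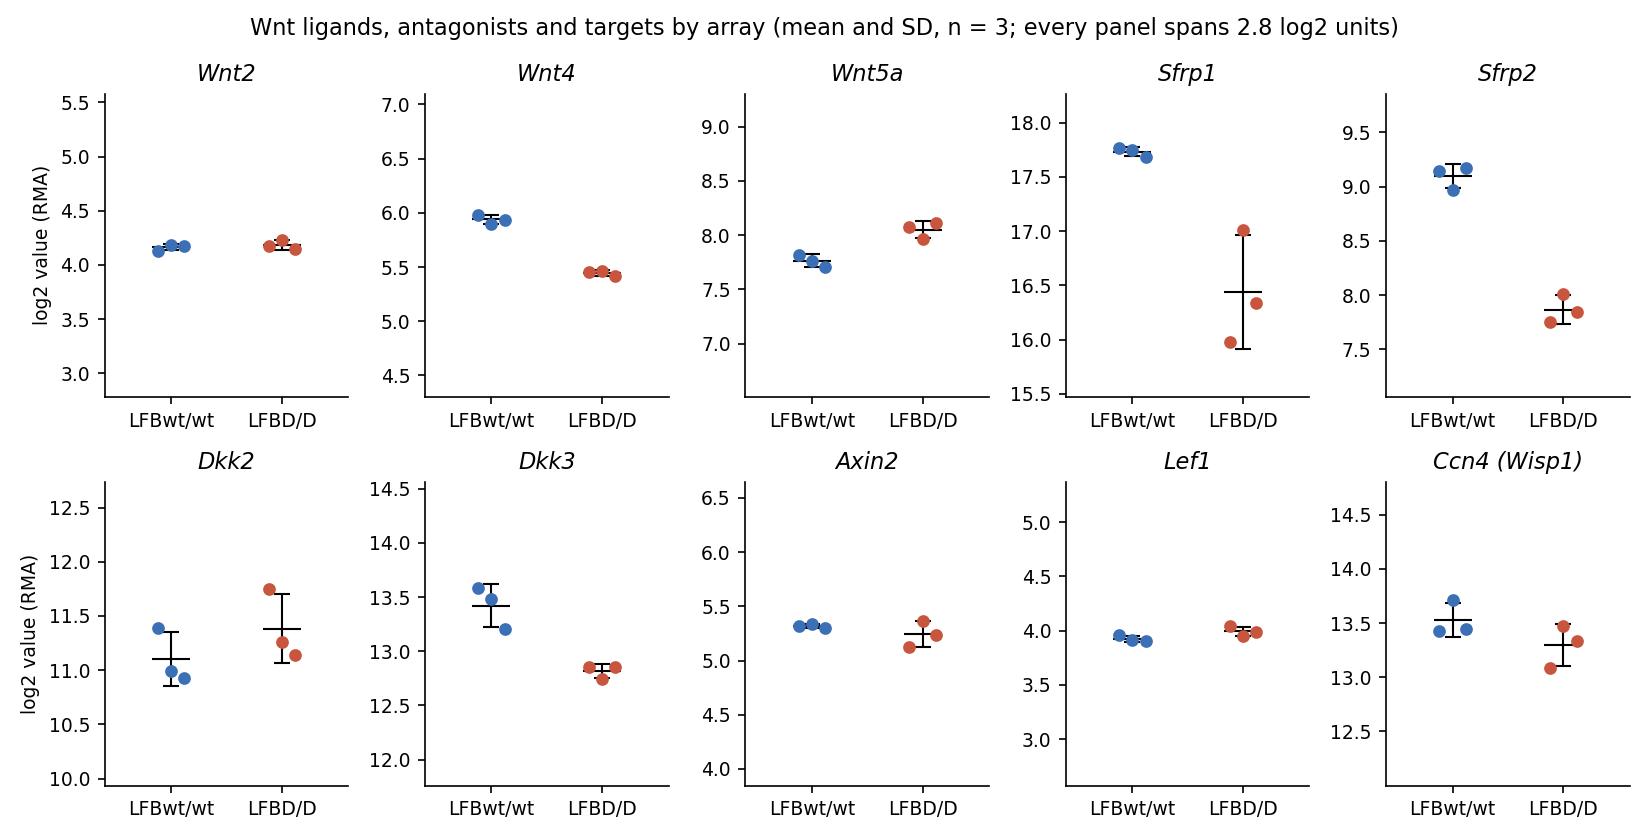
Level of each gene (log2 RMA value) in the 3 LFBwt/wt arrays (blue) and the 3 LFBD/D arrays (red), with the mean and SD as bars; all panels span the same number of log2 units. The groups are apart for Wnt4, Wnt5a, Sfrp1, Sfrp2 and Dkk3 and overlap for the other 5.

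Among the antagonists, both SFRPs fell. Sfrp2, which carries a Frizzled-like domain that binds Wnts, read 9.15, 8.97 and 9.17 in LFBwt/wt and 7.75, 8.01 and 7.84 in LFBD/D. The highest knockout array was below the lowest control array by far more than either group's spread. Its mean went from 9.10 ± 0.11 to 7.87 ± 0.13 (SD, n = 3 in each), a log2 change of -1.23 (s.e. 0.09, 95% interval -1.44 to -1.02), or 2.35-fold, with an adjusted p of 0.000325 (limma). Sfrp2 was also called under all 18 other settings tried, with changes between -1.30 and -1.17.

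Sfrp1, an antagonist of the same family, read 17.76, 17.75 and 17.69 in LFBwt/wt and 15.97, 17.01 and 16.34 in LFBD/D. The control arrays were nearly alike and the knockout arrays were spread over more than 1 log2 unit, all below the controls. Its log2 change was -1.29 (s.e. 0.23, 95% interval -1.83 to -0.75), 2.45-fold, with means of 17.73 ± 0.04 and 16.44 ± 0.52 (SD, n = 3 in each) and an adjusted p of 0.0107 (limma). The call was lost with the methods' t-test (adjusted p = 0.112), which takes the spread of this gene alone. Sfrp1 was the only gene of the 10 with values above 16, which on the log2 scale is all that a 16-bit scanner can return. The deposited values reach 18.88, so they are not plain scanner intensities, and how they relate to RNA amount at this level is not known. This holds for other genes above 16 too, Col1a1 among them. The sizes of the Sfrp1 and Sfrp2 falls can therefore not be set against each other.

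The Dickkopf genes lay apart from each other. Dkk3, a divergent family member for which binding to the co-receptors is less established, read 13.58, 13.48 and 13.20 in LFBwt/wt and 12.86, 12.74 and 12.85 in LFBD/D. Every knockout array was below every control array, and the lowest control, replicate 3, was the nearest. Its log2 change of -0.60 (s.e. 0.10, 95% interval -0.84 to -0.37), 1.52-fold, just passed the fold threshold (adjusted p = 0.0083, limma). The call was lost with the methods' t-test (adjusted p = 0.0832) and when single arrays were left out, since the change was -0.52 without LFBwt/wt replicate 1, -0.57 without LFBwt/wt replicate 2 and -0.57 without LFBD/D replicate 2, each under 1.5-fold, with adjusted p of 0.0249, 0.0396 and 0.0273 (limma), in a range of 0.00367 to 1 over all settings. Dkk2, which can block or enhance Wnt signalling depending on the co-receptors present, read 11.39, 10.99 and 10.93 in LFBwt/wt and 11.75, 11.26 and 11.14 in LFBD/D. The groups overlapped, and replicate 1 was the highest array of both. The change of 0.28 (s.e. 0.18, 95% interval -0.14 to 0.70) did not pass (adjusted p = 0.421, limma), and the interval leaves room for a rise of over 1.5-fold.

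Dkk2 minus Dkk3 within an array was -2.19, -2.49 and -2.28 in controls and -1.11, -1.48 and -1.71 in knockouts. The balance of the pair thus shifted by 0.88 on the log2 scale, with no overlap between groups. The exact two-sided permutation p was 0.1, the smallest that 3 arrays against 3 can give (0.125 adjusted over the 5 pairs of family members compared), so this shift could not pass a threshold of 0.05.

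**Figure D3:**
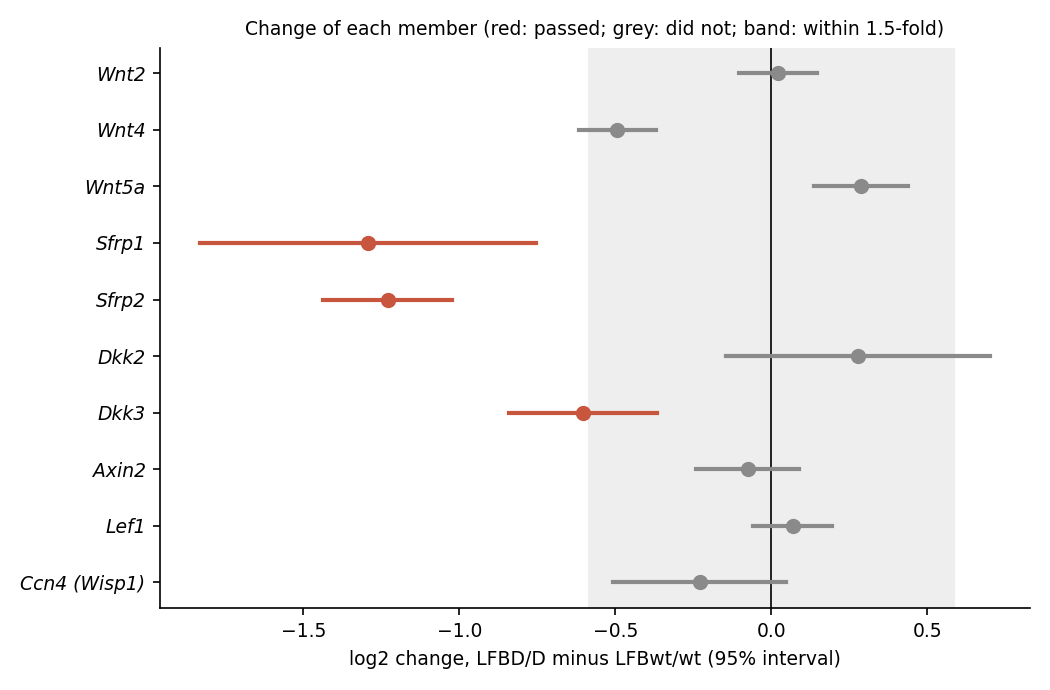
Log2 change of each gene (LFBD/D minus LFBwt/wt) with its 95% interval from limma; red marks genes that passed, grey those that did not, and the shaded band is under 1.5-fold. The interval of Sfrp2 lies wholly beyond the band, from -1.44 to -1.02, and so does that of Sfrp1, while that of Dkk3 reaches into it.

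Of the ligands, none passed. Wnt4, known for its roles in kidney and female genital tract development, read 5.98, 5.90 and 5.94 in LFBwt/wt and 5.46, 5.46 and 5.42 in LFBD/D. The arrays of each genotype agreed closely and the groups were well apart. The knockout values lay little above the array medians of 4.87 to 4.91, where a change can be understated. The log2 change of -0.49 (s.e. 0.05, 95% interval -0.62 to -0.37) had an adjusted p of 0.00132 (limma), but 1.41-fold is under the threshold. Wnt5a, the main ligand of pathways without beta-catenin and a product of distal lung mesenchyme, read 7.82, 7.76 and 7.70 in LFBwt/wt and 8.08, 7.96 and 8.11 in LFBD/D. All 3 knockout arrays were above all controls, the opposite direction to Wnt4. Its change was 0.29 (s.e. 0.06, 95% interval 0.14 to 0.44), 1.22-fold, with an adjusted p of 0.0263 (limma). By adjusted p alone, without a fold threshold, 7.25% of all named genes were lower and 10.9% higher.

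Wnt2, a ligand of embryonic lung mesenchyme, read 4.13, 4.18 and 4.18 in LFBwt/wt and 4.17, 4.23 and 4.15 in LFBD/D. These values are below the median of every array, so Wnt2 RNA was not clearly measured here. Its change was 0.02 (95% interval -0.10 to 0.15, adjusted p = 0.862, limma). Wnt5a minus Wnt4 within an array read 1.84, 1.86 and 1.77 in controls and 2.62, 2.50 and 2.69 in knockouts. The pair thus moved apart by 0.78, 1.72-fold, with every knockout array above every control (exact two-sided permutation p = 0.1, the smallest possible, 0.125 adjusted over the 5 pairs).

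**Figure D4:**
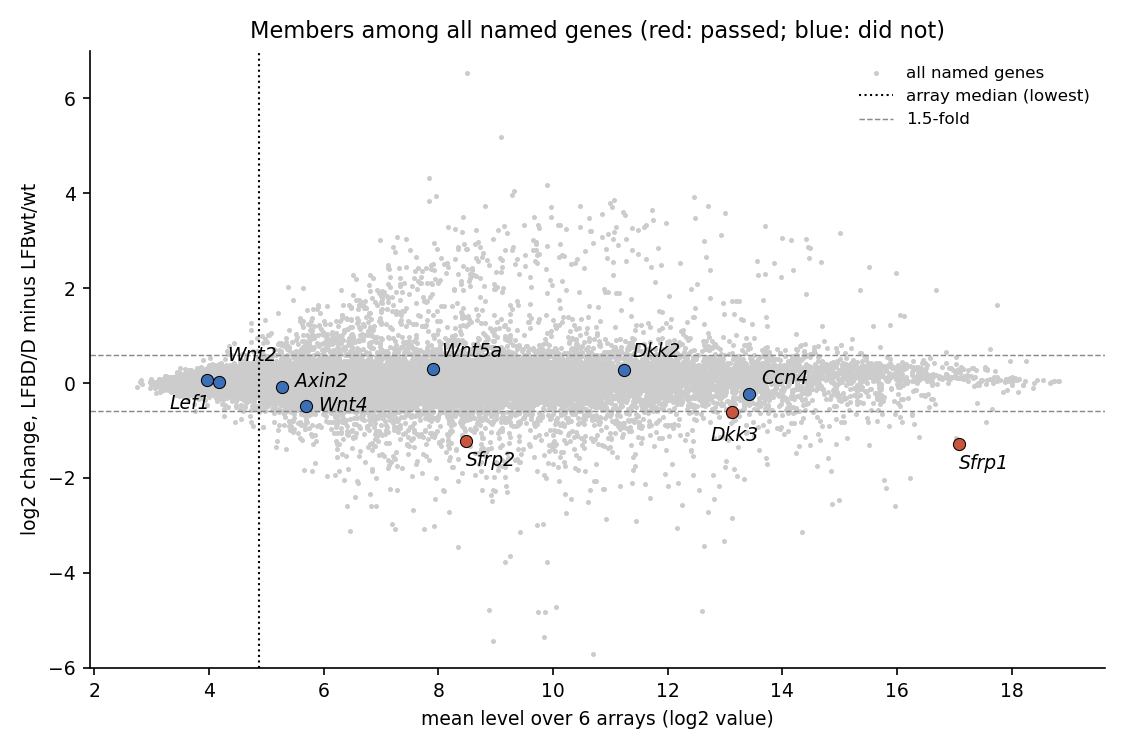
Log2 change against the mean level over the 6 arrays for all named genes (grey) and for the 10 genes (red where passed, blue where not); dashed lines mark 1.5-fold and the dotted line the lowest array median. Wnt2 and Lef1 lie left of the median, and Sfrp1 lies at the far right with a change of -1.29.

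The targets, whose RNA is commonly read as a sign of beta-catenin activity, did not pass in any case. Axin2, a scaffold of the destruction complex that beta-catenin itself induces, read 5.32, 5.34 and 5.30 in LFBwt/wt and 5.13, 5.36 and 5.24 in LFBD/D. Knockout replicate 2 was above all controls and the other two were below them. The change was -0.07 (s.e. 0.07, 95% interval -0.24 to 0.09, adjusted p = 0.607, limma), an interval within 1.5-fold either way. Axin2 lay little above the array medians of 4.87 to 4.91, where a change can be understated. The interval therefore does not bound the change in Axin2 RNA. Lef1, a DNA-binding partner of beta-catenin, read 3.95, 3.91 and 3.90 in LFBwt/wt and 4.04, 3.95 and 3.99 in LFBD/D. It lay below every array's median, like Wnt2, and its change was 0.07 (95% interval -0.06 to 0.19, adjusted p = 0.521, limma). Ccn4, a matricellular protein found as a Wnt1-induced gene, read 13.43, 13.71 and 13.44 in LFBwt/wt and 13.09, 13.47 and 13.34 in LFBD/D. Its groups overlapped, since knockout replicate 2 was above 2 of the controls, and the change of -0.23 (s.e. 0.12, 95% interval -0.51 to 0.05) had an adjusted p of 0.297 (limma).

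Around these genes, 94 other Wnt pathway genes were measured, and 19 of them fell, 2 rose and 73 passed in neither direction, at a median change of -0.05. Counted with the 10 genes, 22 of 104 fell and 2 rose. By the same rule 2.94% of all named genes fell and 3.88% rose, or 4.84% and 6.38% at or above the median cluster. Receptors held more of the falls than any other list, but the lists differed in level. Of the receptor list 1 gene lay below the array medians, against 15 of 19 ligands and 0 of 13 destruction complex genes and transducers. Of 18 Frizzled receptors and co-receptors, 9 fell and 0 rose, with a median of -0.49. The methods' t-test called 6 of the list lower and 0 higher. Whether the list differed from other genes was not tested.

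Ror1, a receptor tyrosine kinase that binds Wnt5a, read 11.27, 11.53 and 11.35 in LFBwt/wt and 8.76, 8.93 and 9.46 in LFBD/D. It had the largest fall of the 104 pathway genes, -2.34 (s.e. 0.17, adjusted p = 0.000362, limma), 5.05-fold. Ptk7, a planar polarity co-receptor, fell by 1.36, Fzd8 by 1.06 and Fzd4, the Norrin receptor, by 1.02, and the other 5 that fell, named after their values were seen, were Fzd1, Fzd6, Lrp6, Ryk and Ror2. Wnt5a, which binds both Ror1 and Ror2, was 1.22-fold higher in the same arrays, under the threshold. The leukocyte and mesothelial markers moved in these arrays too, and their part in the receptor changes was not tested.

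None of the 19 Wnt ligands passed in either direction (limma), and the methods' t-test called 0. At an unadjusted p under 0.05, 1 was lower and 3 were higher, no larger a share than the 12.4% and 18.3% of all named genes. In 15 of the 19 the level was below the array medians. Wnt9a and Wnt7a, the ligands outside the 10 genes with the smallest p, changed by 0.24 and 0.12 (adjusted p = 0.195 and 0.202, limma). Wls, which carries Wnts to the cell surface, was at -0.27 (adjusted p = 0.0306, limma), under the fold threshold, and Porcn, which attaches their lipid, at 0.00 (adjusted p = 0.974, limma).

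Of 14 secreted antagonists, the 3 that fell were Sfrp1, Sfrp2 and Dkk3, where 2.94% of all named genes fell and 3.88% rose. The other 11 did not pass, among them Frzb, an SFRP family member, at -0.48 (adjusted p = 0.198, limma), and Draxin, which was dim, at -0.11 (adjusted p = 0.361, limma). R-spondins raise the number of Frizzleds at the surface. Of 8 R-spondins and their receptors, a list that also holds Znrf3, 1 fell. This was Rspo1, which read 7.63, 7.94 and 8.25 in LFBwt/wt and 6.27, 6.54 and 6.16 in LFBD/D, a change of -1.62 (s.e. 0.16, adjusted p = 0.00104, limma). Znrf3, named after its values were seen, was at 0.37 (adjusted p = 0.0419, limma), under the fold threshold. Of 12 beta-catenin target genes measured, Axin2, Lef1 and Ccn4 among them, 1 fell and 1 rose, with a median of 0.01. Since 4 of the 12 lay below the array medians, this median says little about target output. Nkd1, a feedback inhibitor of the pathway, fell by 0.89 (adjusted p = 0.000416, limma), and Myc, which many other signals also induce, rose by 0.67 (adjusted p = 0.00147, limma).

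**Figure D5:**
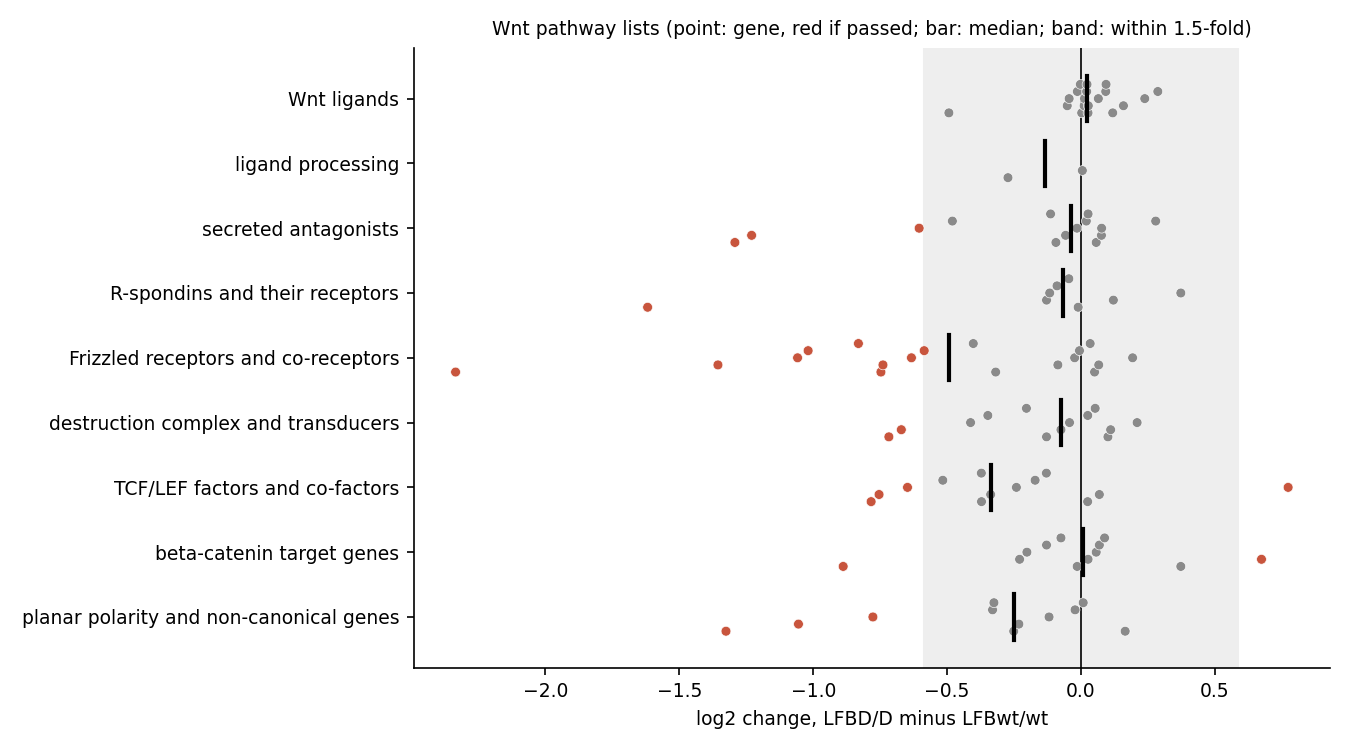
Log2 change (LFBD/D minus LFBwt/wt) of each gene in the Wnt pathway lists; red points passed, grey did not, black bars are list medians, and the shaded band is under 1.5-fold. Frizzled receptors and co-receptors hold 9 of the genes that fell, with Ror1 at -2.34 farthest to the left.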

How the data were processed

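RNA of 3 LFBwt/wt and 3 LFBD/D cultures was hybridised to mouse Clariom D arrays, 1 per sample. The deposited values are log2 levels that the authors made by RMA with default settings, including quantile normalisation, which hides changes in total RNA per cell. No annotation version is given in the sources used here. Precision is limited by the number of arrays. Of 65956 clusters, 31292 named 1 gene by the platform annotation, 1522 several and 33142 none, with symbols updated through RefSeq (GRCm38.p6). Genes with several clusters were read from the brightest. Genotype was the only term of the fit (limma 3.58.1, R 4.3.3), and p-values were adjusted by Benjamini-Hochberg over all clusters. The thresholds, an adjusted p of 0.05 and a fold of 1.5, are those of the study's array methods, which name no test, while its general statistics name a t-test. The fit was run on simulated data with normal noise at the fit's own variances, scored without the fold threshold. This checks the code, not whether such noise describes these arrays. The 10 genes, the 9 pathway and 6 marker lists, the naming rule (up to 4 passing genes per pathway list by size of change, or the 2 of smallest p, up to 3 per marker list, and the defining markers) and the settings were chosen with earlier results of these data known.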

Additional observations from a re-analysis of the deposited data

How the results depend on the processing

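The 3 falls among the 10 genes became 1 with Student's t-test and 1 when limma tested against a 1.5-fold change (treat), where Sfrp2 alone was called. Without a fold threshold Wnt5a gave 1 higher gene. Among all 104 pathway genes, the 22 lower became 14 with Student's t-test and 6 with treat. The 2 higher became 0 with treat and 4 without a fold threshold. All clusters called went from 3199 to 1647 with Student's t-test, 887 with treat and 8542 without a fold threshold. Sfrp1 lost its call with Student's t-test and treat only (adjusted p = 0.112 and 0.396, in a range of 0.000667 to 0.396). Dkk3 kept its call in 12 of 18 settings. It lost the call with Student's t-test, treat, 75th percentile centring (-0.55, adjusted p = 0.0110, limma) and without any of 3 single arrays (-0.52 to -0.57). Wnt4 and Wnt5a passed only without a fold threshold. Wnt2, with each array left out in turn, lay between -0.0017 (without LFBD/D replicate 2, adjusted p = 0.993, limma) and 0.039, and Wnt2 and Lef1 could not be fitted once dim clusters were left out. With the replicate number as a block, 3 genes were lower and 0 higher, the pathway gave 22 and 2, and 3060 clusters were called. The block moved the adjusted p of Dkk2 from 0.421 to 0.0618 and that of Wnt5a from 0.0263 to 0.0737 (limma). Deviations from the group mean gave r = -0.04, -0.01 and -0.22 for samples of the same number. Deviations from a mean of 3 arrays are tied to each other, so these values cannot settle whether the numbers pair the samples. The remaining settings, among them median centring and cyclic loess, moved no call of the 10 genes. The scalings shifted the median of all clusters by at most 0.05. The cause of these differences was not tested, beyond each setting's own construction.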

Other observations

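The intracellular and planar polarity genes of the pathway, which the comparison above did not describe, gave further values. By the same rule as above, 2.94% of all named genes fell and 3.88% rose. Of 13 TCF/LEF factors and co-factors, 3 fell and 1 rose, with a median change of -0.34. Tcf7l2, a DNA-binding partner of beta-catenin, read 9.53, 9.56 and 9.65 in LFBwt/wt and 8.58, 8.90 and 8.99 in LFBD/D, a fall of 0.75 on the log2 scale (adjusted p = 0.00468, limma). The co-activator Bcl9l fell by 0.78 and the co-repressor Tle3 by 0.65. Tle4, a co-repressor of the same family as Tle3, went the other way, from 8.48, 8.40 and 8.46 to 9.24, 9.14 and 9.29, a rise of 0.77 (adjusted p = 0.000438, limma).

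Of 13 destruction complex genes and transducers, 2 fell, Tnks, a tankyrase that marks Axin for breakdown, by 0.72 and Amer1, an APC-binding adaptor, by 0.67. Of 11 planar polarity and non-canonical genes, 3 fell and 0 rose, with a median of -0.25. Prickle1, a core planar polarity protein, read 8.47, 8.38 and 8.30 in LFBwt/wt and 7.33, 7.42 and 7.23 in LFBD/D, a fall of 1.06. Rhou, a small GTPase induced by Wnt1, fell by 1.33 and Daam1, a formin that binds Dishevelled, by 0.78. All these arrays were those in which leukocyte markers were higher and mesothelial markers lower, and the part of those cells was not tested.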
